A study of Mus musculus with 9 samples.

Results

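Glycolysis splits glucose into pyruvate in the cytosol and yields ATP and carbon for biosynthesis, and the hypoxia response raises transcription of many genes of this pathway when oxygen is short. The genes described here are 42 named genes of these pathways, the hexose transporters, glycolytic enzymes, lactate and pyruvate handling genes, and members and targets of the hypoxia-inducible factor (HIF) pathway. They are a list of symbols drawn up with earlier results of these data known, and all 42 were found among 35896 genes and were among the 14648 genes that passed the filter on low counts. Pyruvate is either reduced to lactate and exported or carried into mitochondria, where pyruvate dehydrogenase turns it into acetyl-CoA unless pyruvate dehydrogenase kinases inactivate it. HIF alpha subunits are hydroxylated by oxygen-dependent prolyl hydroxylases and then degraded, and when they escape this they bind DNA at a short core and activate transporters, glycolytic enzymes and genes that restrain mitochondrial respiration. Naive mouse embryonic stem cells are known to draw on both respiration and glycolysis, and the epiblast-like cells that follow them to lean more on glycolysis.

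The series asks what Arp2/3 activity contributes when mouse embryonic stem cells differentiate. Poly-A RNA was sequenced from 9 libraries of the E14 line of mouse embryonic stem cells, in 3 groups of 3 biological replicates that carry the numbers 1 to 3. Cells of the group with LIF2i stayed in self-renewal, in serum medium with the cytokine LIF, 1 µM of the MEK inhibitor PD0325901 and 1 µM of the glycogen synthase kinase inhibitor CHIR99021. Controls without LIF2i were cultured without these 3 additions for 72 h, a spontaneous differentiation. The CK666 group went through the same 72 h with 80 µM CK666, a small molecule inhibitor of Arp2/3, the complex from which branched actin filaments grow. All groups share the 1 cell line and carry no other genetic change in the labels, and there is 1 dose and 1 time. CK666 came from a DMSO stock and the labels call the controls untreated, so the drug and its solvent cannot be told apart. No culture at lowered oxygen is described.

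Library totals ran from 16894327 to 22550952 estimated counts, where 3 counts equal 0.133 to 0.178 CPM (counts scaled to library size), and intervals or floors cover counting error only. The replicate 1 libraries stand apart: a count above 0 was found for 15690 to 17605 genes in them and for 18166 to 18749 genes in the others, and the component that separates them carried 25.7% of the variance of log2 CPM. Each group holds 1 of them, and the calls among the 42 genes are set beside those made without them in the account of each comparison. Summed over 6 naive pluripotency markers, the level was 2718 to 4906 CPM with LIF2i, 237 to 327 CPM without and 364 to 592 CPM with CK666, and all 6 fell on withdrawal, while all 4 formative markers rose. The summed level of the formative markers was 81.8 to 109 CPM with LIF2i, 952 to 2519 CPM without and 544 to 1780 CPM with CK666. With CK666 1 marker of each list was called, naive Tbx3 raised and formative Fgf5 lowered, where 2.05% of all genes were called. Both calls were lost when the replicate number was not a block in the fit (edgeR adjusted p 0.19 and 0.26). They were also lost without all replicate 2 (0.19 and 0.081) or all replicate 3 libraries (0.35 and 0.34). An unadjusted edgeR p under 0.05 was reached by 3 of the 6 naive and all 4 formative markers, beside 19.7% of all genes. DESeq2 called 1 naive and 3 formative markers. Markers of other cell types were summed in the same way. Those of endoderm (6 genes) gave 11.2 to 14.4 CPM with LIF2i, 20.02 to 49.4 CPM without and 25.9 to 40.3 CPM with CK666, and those of fibroblasts (5) 6.26 to 9.58, 28.6 to 31.0 and 17.3 to 25.9 CPM. Primitive streak and mesoderm markers (5) gave 7.71 to 14.8, 8.46 to 17.4 and 4.13 to 7.96 CPM, and early neural markers (4), 1 of them at or under 3 counts in all 9 libraries, 13.2 to 24.0, 4.36 to 26.7 and 15.9 to 52.6 CPM. On withdrawal edgeR called 6 of the 14 of these genes that were tested, beside 40.7% of all genes. Endodermal Dab2, mesodermal Mixl1 and the 3 fibroblast genes Col1a1, Col1a2 and Thy1 rose, and neural Sox1 fell. Without the block the calls of Sox1 (edgeR adjusted p 0.60), Col1a1 (0.39) and Col1a2 (0.051) were lost. Those of Sox1 and Col1a1 were also lost without all replicate 2 (0.12 and 0.20) or all replicate 3 libraries (0.14 and 0.24). That of Mixl1 was lost without all replicate 3 libraries (0.14). With CK666 edgeR called 0 of the 14, 4 had an unadjusted p under 0.05 and DESeq2 called 2. Sox1 was at 20.9, 2.49 and 3.56 CPM in the withdrawn controls and 45.4, 6.23 and 10.1 CPM with CK666, higher in all 3 pairs, at 1.27 (SE 0.37, edgeR adjusted p 0.11). Levels of some of these markers differ between the groups, and the part of these markers in the results was not tested. In bulk RNA, fewer cells of a type and less RNA per cell cannot be told apart.

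Values per library are given in the order of replicates 1, 2 and 3, as CPM after TMM scaling, which serves comparisons of 1 gene between libraries, and as TPM, which is scaled per transcript length and serves comparisons between genes. A gene is called at a Benjamini-Hochberg adjusted p under 0.05 in edgeR's quasi-likelihood test with the replicate number as a block, and log2 fold changes are given with their standard error (SE). The 42 genes together held 2.34 to 3.08% of all TPM with LIF2i, 1.77 to 2.83% without and 1.21 to 2.40% with CK666. Within each replicate number the share was highest with LIF2i and lowest with CK666, and the ranges of the 3 groups overlapped.

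On withdrawal of LIF2i 19 of the 42 genes were called (45.2%), 16 lowered and 3 raised, where 40.7% of all genes were called, 19.7% lowered and 21.1% raised. The median log2 fold change was -0.36 over the 42 genes and 0.01 over all genes tested. The lowered genes include Hk1, Pfkp, Ldhb, Mpc1 and Vegfa, and the raised ones are Pfkm, Eno3 and Pdk1. Without the block 10 of the 42 were called, beside 3509 of 14648 genes. Without the replicate 1 libraries there were 24, 22 lowered and 2 raised, beside 44.8% of all genes. Of the 19 calls 17 were kept without replicate 1, those of Pdk1 and Pdk3 being lost, and none of the 19 changed sign. Of the 19 log2 changes 12 moved by no more than 1 SE, and the largest shift was that of Ldhb, to -2.90. The others past 1 SE were Hk1 (-2.27), Pfkm (0.66), Pfkfb3 (-0.73), Aldoc (-1.24), Epas1 (-0.68) and Ndufa4l2 (-2.17). Without all replicate 2 or all replicate 3 libraries 11 and 14 of the 42 were called, beside 3746 of 14828 and 3099 of 14968 genes. Within all 3 same-numbered pairs 21 of the 42 genes were lower without LIF2i (50.0%) and 7 were higher (16.7%). Among all genes these shares were 31.5% and 32.9%.

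CK666 cells were set against controls, both without LIF2i, to measure the effect of the inhibitor during withdrawal. Of the 42 genes 9 were called (21.4%), 6 lowered and 3 raised, where 2.05% of all genes were called, 0.894% lowered and 1.15% raised. Lowered were the glucose transporter gene Slc2a1, the regulatory enzyme gene Pfkfb3, the aldolase genes Aldoa and Aldoc, the prolyl hydroxylase gene Egln1 and the HIF target Ndufa4l2, and raised were the pyruvate carrier gene Mpc1, the kinase gene Pdk4 and Epas1, which encodes HIF-2 alpha. The median log2 fold change was -0.17 over the 42 genes and 0.02 over all genes tested. An unadjusted edgeR p under 0.05 was reached by 25 of the 42 genes and by 19.7% of all genes. Without the replicate block edgeR called 0 genes, of the 42 or of all, while an unadjusted p under 0.05 was reached by 17 of the 42 and by 8.54% of all genes. DESeq2 with the block called 20 of the 42 and 1136 genes in all. Without the replicate 1 libraries 21 of the 42 were called, 18 lowered and 3 raised, beside 12.3% of all genes. All 9 calls were kept there, with log2 changes of -1.44 for Slc2a1, -0.94 for Pfkfb3, -1.04 for Aldoa, -1.08 for Aldoc, -0.88 for Egln1, -3.72 for Ndufa4l2, 1.13 for Mpc1, 1.08 for Pdk4 and 1.44 for Epas1 (edgeR adjusted p 0.00039 to 0.02). Of the 9 changes 7 moved by no more than 1 SE, the exceptions being those of the aldolase genes. Without all replicate 2 libraries 1 of the 9 calls remained, that of Ndufa4l2, and 8 of 14828 genes were called in all. Without all replicate 3 libraries edgeR called 0 of the 42 and 0 of 14968 genes, and an unadjusted p under 0.05 was reached by 19 of the 42 and by 9.09% of all genes. The single libraries on which a call rested are named with each gene. Within all 3 pairs 20 of the 42 genes were lower with CK666 (47.6%) and 8 were higher (19.0%), against 23.3% and 25.3% of all genes.

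The CK666 libraries were further compared with the libraries of self-renewal. Here 29 of the 42 genes were called (69.0%), 25 lowered and 4 raised, where 36.9% of all genes were called, 17.1% lowered and 19.8% raised, and the median log2 fold change was -0.86 over the 42 genes against 0.01 over all genes. Without the block 20 were called, beside 2966 of 14648 genes. Without replicate 1 there were 36, 29 lowered and 7 raised, beside 41.6% of all genes. The added ones were Pfkl, Gapdh, Eno1, Pkm and Slc16a3, lowered, and Eno2, Hif1a and Pdk2, raised, and the call of Slc2a3 was lost, the other 28 being kept. Of the 29 changes 17 moved by no more than 1 SE and 0 changed sign, and the largest shift was that of Ldha, to -2.40. Next to it, Ldhb moved to -2.16, Pgk1 to -1.74 and Egln3 to -2.14. Without the replicate 1 library with LIF2i alone Pfkl, Gapdh, Pkm, Slc16a3 and Eno2 passed too, and without the replicate 1 CK666 library alone Pfkl, Gapdh, Eno1 and Pkm. Without all replicate 2 or all replicate 3 libraries 20 and 18 of the 42 were called, beside 3336 of 14828 and 2413 of 14968 genes. The 3 comparisons share libraries in pairs, so their values are set side by side below without a test of their relation.

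**Figure D1:**
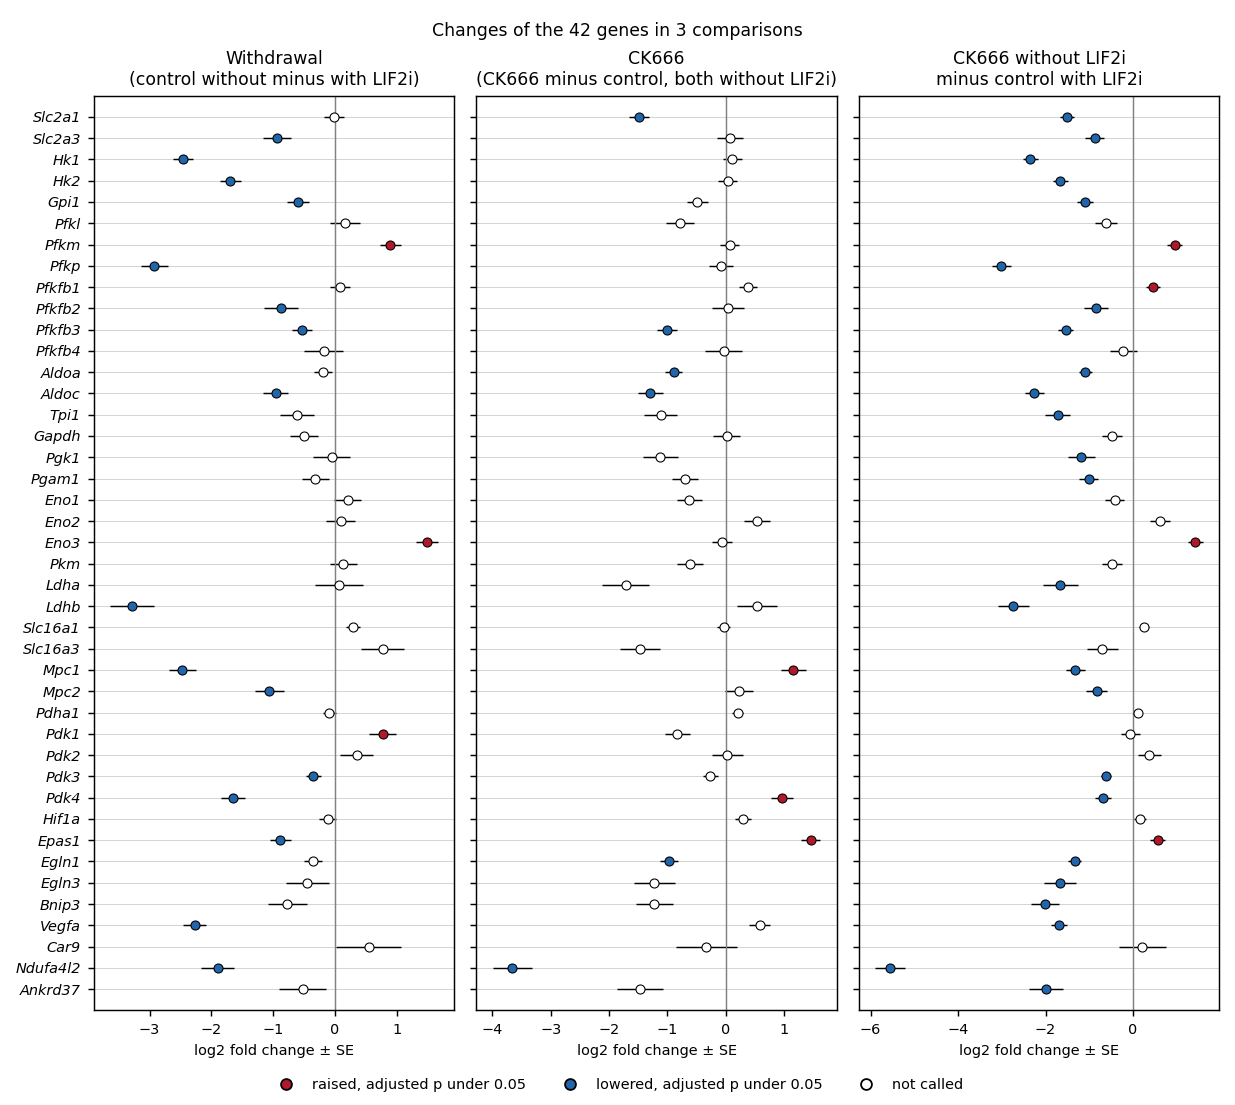
Log2 fold change with its SE for each of the 42 genes (rows, in order of role) in the 3 comparisons (panels; the horizontal scales differ), with genes raised or lowered at an edgeR adjusted p under 0.05 filled. Filled points left of 0 number 16 for withdrawal, 6 for CK666 and 25 for CK666 cells against self-renewing cells.

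Glucose enters the cells through facilitative transporters, of which Slc2a1 encodes GLUT1 and Slc2a3 encodes GLUT3. Slc2a1 (chromosome 4, 119108711 to 119137983, plus strand of GRCm38) was at 763, 825 and 792 CPM with LIF2i, 893, 845 and 627 CPM without it and 289.9, 237 and 312 CPM with CK666. All 3 CK666 libraries lay below all 6 others, and the 6 control libraries overlapped. The CK666 change was -1.49 (SE 0.17, edgeR adjusted p 0.011), a 2.81-fold lower level, and that on withdrawal -0.02 (SE 0.16, edgeR adjusted p 0.95). The CK666 call was lost without the CK666 replicate 2 library (edgeR adjusted p 0.068), without the replicate 2 control without LIF2i (0.069), and without the block (0.19). Slc2a3 was at 4957, 3574 and 3676 CPM with LIF2i, 2689.9, 1308 and 2578 CPM without it and 1903, 1987 and 2747 CPM with CK666. It fell by 0.94 on the log2 scale (SE 0.23, edgeR adjusted p 0.009) on withdrawal, with no overlap between the groups, and its CK666 change was 0.07 (SE 0.22, edgeR adjusted p 0.91). The withdrawal call was lost without replicate 1 with LIF2i (edgeR adjusted p 0.057), without the replicate 2 control without LIF2i (0.053) and without the block (0.075). Against self-renewal both genes were lowered in CK666 cells, Slc2a1 at -1.51 (SE 0.17, edgeR adjusted p 0.00017) in all 19 alternatives and Slc2a3 at -0.88 (SE 0.23, edgeR adjusted p 0.014). The latter was lost without replicate 1 of CK666 (edgeR adjusted p 0.056), replicate 1 or 2 with LIF2i (0.061 and 0.065) or the block (0.087).

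Per length, Slc2a3 was the more abundant of this pair in every library. Slc2a1 made up 19.7 ± 4.37% (SD, n = 3) with LIF2i, 32.6 ± 11.0% (n = 3) without and 13.3 ± 1.14% (n = 3) with CK666 of their summed TPM. The CK666 shares were the lowest and the withdrawn controls the highest, with no overlap between groups, although the replicate 1 libraries with LIF2i and with CK666 both stood at 14.6%. An exact two-sided permutation test of 3 against 3 libraries cannot go below p = 0.1, which each of these differences reached.

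Hexokinases phosphorylate glucose and so trap it in the cell, and glucose-6-phosphate isomerase, encoded by Gpi1, makes fructose-6-phosphate. Both hexokinase genes fell on withdrawal. Hk1 was at 357, 304 and 240.4 CPM with LIF2i, 52.8, 66.7 and 44.8 CPM without it and 53.0, 60.1 and 62.2 CPM with CK666 and fell by 2.46 on the log2 scale (SE 0.17, edgeR adjusted p 1.2e-05) on withdrawal with no overlap. Hk2 was at 1347, 942 and 1000.0 CPM with LIF2i, 533, 219 and 327 CPM without it and 570.1, 236 and 306 CPM with CK666 and fell by 1.70 on the log2 scale (SE 0.17, edgeR adjusted p 7.3e-05). Replicate 1 was the highest of its group for Hk2 in all 3 groups. Both withdrawal calls held in all 19 alternative fits. With CK666 neither gene was called, at 0.11 (SE 0.16, edgeR adjusted p 0.75) for Hk1 and 0.04 (SE 0.16, edgeR adjusted p 0.93) for Hk2, and both were lowered against self-renewal, at -2.34 (SE 0.17, edgeR adjusted p 1.8e-05) and -1.66 (SE 0.17, edgeR adjusted p 9.7e-05). Gpi1 was at 654, 1303 and 1073 CPM with LIF2i, 571, 699.8 and 685 CPM without it and 459, 443 and 477 CPM with CK666. It fell by 0.60 on the log2 scale (SE 0.18, edgeR adjusted p 0.025) on withdrawal, although the groups overlapped, replicate 1 with LIF2i lying below 2 of the controls. That call was lost when any of 5 libraries was left out, replicates 2 and 3 with LIF2i (edgeR adjusted p 0.14 and 0.095) and each control without LIF2i (0.068, 0.11 and 0.097), and without the block (0.11). CK666 left all 3 libraries below the controls without LIF2i, but the change of -0.49 (SE 0.18, edgeR adjusted p 0.18) was not called with all libraries. It passed without the replicate 1 libraries (edgeR adjusted p 0.011) or without the replicate 1 library with LIF2i alone (0.016). Against self-renewal Gpi1 fell by 1.09 on the log2 scale (SE 0.18, edgeR adjusted p 0.0017). An opposite-strand gene that was not among those counted overlaps 11.5% of the exonic sequence of Gpi1. The sources do not say if strand was used in counting.

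Phosphofructokinase commits sugar to glycolysis and is built from 3 kinds of subunit, the liver type Pfkl, the muscle type Pfkm and the platelet type Pfkp. Withdrawal changed the mixture of these transcripts. Pfkp was at 535, 894 and 746 CPM with LIF2i, 76.5, 96.6 and 109 CPM without it and 86.5, 120.3 and 62.6 CPM with CK666 and fell by 2.92 on the log2 scale (SE 0.22, edgeR adjusted p 1.7e-05) on withdrawal, or 7.58-fold. Pfkm ranged from 37.2 to 71.2 CPM with LIF2i, 96.7 to 102 CPM without and 97.2 to 109.7 CPM with CK666 and rose by 0.89 on the log2 scale (SE 0.17, edgeR adjusted p 0.0027), and both calls held in all 19 alternatives. Pfkl was at 255, 683 and 604 CPM with LIF2i, 458, 593 and 599.7 CPM without it and 317, 287 and 333 CPM with CK666, where replicate 1 with LIF2i was the lowest library of all 9, and was not called on withdrawal, at 0.16 (SE 0.25, edgeR adjusted p 0.63). Other genes overlap 10.7% of the exonic sequence of Pfkm and 5.58% of that of Pfkp. Genes that were themselves counted overlap 0.539% and 5.58%.

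As a share of summed phosphofructokinase TPM, Pfkp made up 57.6 ± 5.55% (SD, n = 3) with LIF2i, 12.4 ± 0.847% (n = 3) without and 18.1 ± 6.09% (n = 3) with CK666. Pfkl made up 37.7 ± 5.20% (SD, n = 3) with LIF2i, 71.2 ± 1.00% (n = 3) without and 58.2 ± 6.02% (n = 3) with CK666, and Pfkm 4.71 ± 0.367% (SD, n = 3) with LIF2i, 16.4 ± 1.43% (n = 3) without and 23.8 ± 2.16% (n = 3) with CK666. In self-renewing cells Pfkp was thus the largest part in all 3 libraries, and without LIF2i Pfkl was the largest in all 6. Each of the 3 shares separated self-renewing from withdrawn libraries without overlap, at the smallest exact two-sided permutation p that 3 against 3 allows, 0.1. With CK666 the Pfkl share was below and the Pfkm share above that of the controls without LIF2i with no overlap (exact p 0.1 each), and the Pfkp shares overlapped (exact p 0.3), higher with CK666 in 2 of 3 pairs. As levels, none of the 3 genes was called for CK666: Pfkl stood at -0.78 (SE 0.25, edgeR adjusted p 0.13), Pfkm at 0.06 (SE 0.17, edgeR adjusted p 0.87) and Pfkp at -0.09 (SE 0.20, edgeR adjusted p 0.86). Pfkl passed for CK666 without the replicate 1 libraries (edgeR adjusted p 0.0017) and without the replicate 1 library with LIF2i alone (0.0032). From estimated counts in place of TPM, a choice added after the data were seen, the Pfkm share was 4.29%, 13.6% and 20.6% in the 3 groups and the order of the groups was the same for each of the 3 subunits.

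**Figure D2:**
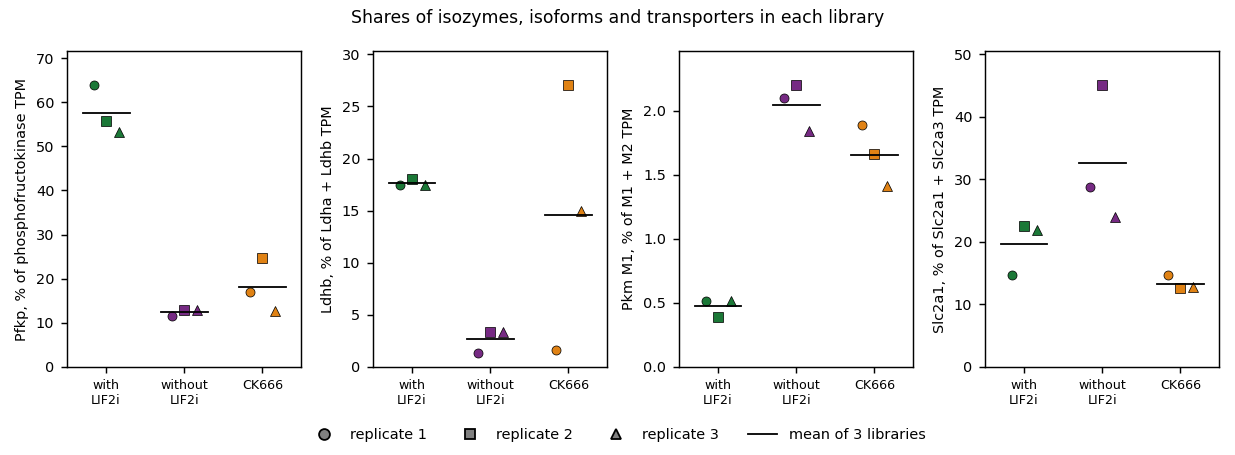
Shares of TPM in each library: Pfkp among the 3 phosphofructokinase genes, Ldhb in Ldha plus Ldhb, the M1 transcript in M1 plus M2 of Pkm, and Slc2a1 in Slc2a1 plus Slc2a3, with lines at the mean of 3 libraries. Pfkp fell from 53.3 to 63.9% with LIF2i to 11.4 to 12.9% without, and the Ldhb share with CK666 spread from 1.64 to 27.0%.

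The bifunctional PFKFB enzymes set the level of fructose-2,6-bisphosphate, the strongest activator of phosphofructokinase. Pfkfb3, the form known to favour its synthesis, was at 23.3, 54.9 and 54.2 CPM with LIF2i, 22.2, 33.1 and 31.6 CPM without it and 10.0, 15.9 and 18.3 CPM with CK666. Replicate 1 was lowest in each group. Pfkfb3 fell by 0.53 on the log2 scale (SE 0.17, edgeR adjusted p 0.031) on withdrawal and with CK666 fell by 1.00 on the log2 scale (SE 0.17, edgeR adjusted p 0.03), and all 3 CK666 libraries lay below the 6 others. The CK666 call was lost without the replicate 2 or 3 CK666 library (edgeR adjusted p 0.21 and 0.11), any of the 3 controls without LIF2i (0.068, 0.15 and 0.15) or the replicate 3 library with LIF2i (0.055), and without the block (0.46). The withdrawal call was lost without replicate 2 or 3 of either group (0.13 to 0.17) and without the block (0.25), while the difference from self-renewal, -1.54 (SE 0.17, edgeR adjusted p 0.00019), held in all 19 alternatives. Pfkfb1 was per length the most abundant of the 4, at 18.5, 20.9 and 17.9 CPM with LIF2i, 22.3, 22.5 and 16.1 CPM without it and 24.3, 29.5 and 25.4 CPM with CK666. It was called only against self-renewal, by 0.47 (SE 0.16, edgeR adjusted p 0.043), a call that 7 of 19 alternatives kept and that was lost without the block (0.14). It was also lost without any 1 of 7 libraries, each one with LIF2i and replicates 2 and 3 of the others (0.053 to 0.19). Pfkfb2 ranged from 12.4 to 22.0 CPM with LIF2i, 7.58 to 10.9 CPM without and 6.21 to 14.3 CPM with CK666 and fell by 0.88 on the log2 scale (SE 0.28, edgeR adjusted p 0.03) on withdrawal, a call lost without replicate 2 or 3 of either group (0.086 to 0.14) and without the block (0.079). Against self-renewal its change in CK666 cells was -0.84 (SE 0.27, edgeR adjusted p 0.038), lost without any 1 of CK666 replicates 1 and 3, LIF2i replicates 2 and 3 and the replicate 3 control without LIF2i (0.061 to 0.15), and without the block (0.13). Other genes overlap 19.5% of its exonic sequence. Pfkfb4 was low, at 2.18 to 4.43 CPM over all libraries, and was called in no comparison.

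Aldolase splits fructose-1,6-bisphosphate, and Aldoa, the muscle form that most tissues use, was one of the most abundant transcripts of the pathway, at 2999.6 ± 487 TPM (SD, n = 3) with LIF2i, 2801 ± 357 TPM (n = 3) without and 1478 ± 364 TPM (n = 3) with CK666. Aldoa (chromosome 7, 126795234 to 126800751, minus strand of GRCm38) fell with CK666. It was at 2598, 3058 and 2478 CPM with LIF2i, 2318, 2507 and 2254 CPM without it and 1492, 1197 and 1141 CPM with CK666, so that the 3 CK666 libraries lay below all 6 others while the controls overlapped. It fell by 0.89 on the log2 scale (SE 0.14, edgeR adjusted p 0.026) with CK666, and withdrawal alone gave -0.20 (SE 0.14, edgeR adjusted p 0.3). Aldoc, the brain form, was much less abundant, 6.71 to 84.9 TPM over all libraries, and was at 33.0, 118 and 82.1 CPM with LIF2i, 25.5, 42.8 and 39.9 CPM without it and 7.68, 19.1 and 20.4 CPM with CK666. Withdrawal lowered it, at -0.96 (SE 0.20, edgeR adjusted p 0.005), and so did CK666, at -1.29 (SE 0.21, edgeR adjusted p 0.026), in all 3 pairs of each. The CK666 libraries again lay below the 6 others. Neither CK666 call stood without the CK666 replicate 2 library (edgeR adjusted p 0.20 for Aldoa and 0.19 for Aldoc), the CK666 replicate 3 library (0.13 and 0.072), the replicate 2 control without LIF2i (0.16 and 0.10), the replicate 3 control (0.18 and 0.14) or the block (0.33 and 0.52), and that of Aldoa also not without the replicate 1 control (0.056) or the replicate 3 library with LIF2i (0.051). Against self-renewal both were lowered in all 19 alternatives, at -1.09 (SE 0.15, edgeR adjusted p 0.00048) and -2.25 (SE 0.21, edgeR adjusted p 7e-05). The withdrawal call of Aldoc was lost without the block (0.13) and when all libraries of replicate 2 or of replicate 3 were left out (0.059 and 0.052). A second gene record named Aldoa held 27 to 76 counts in a library and was left out.

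Triose phosphate isomerase is encoded by Tpi1, whose transcripts in this annotation held few counts, at 7.42, 17.9 and 12.9 CPM with LIF2i, 6.85, 8.20 and 9.12 CPM without it and 3.60, 3.40 and 4.02 CPM with CK666. These values may cover only part of the gene's reads. They fell by 1.72 on the log2 scale (SE 0.29, edgeR adjusted p 0.0016) against self-renewal and were not called on withdrawal, -0.61 (SE 0.27, edgeR adjusted p 0.1), or for CK666, -1.11 (SE 0.28, edgeR adjusted p 0.074), although all 3 CK666 libraries lay below the others. Without the replicate 1 library with LIF2i the withdrawal and CK666 changes passed, at -0.85 and -1.14 (edgeR adjusted p 0.019 and 0.014).

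The later steps, from glyceraldehyde-3-phosphate to pyruvate, form the ATP gained by glycolysis. Gapdh was the most abundant of the 42 genes per length, at 9594 ± 1134 TPM (SD, n = 3) with LIF2i, 6675 ± 1579.6 TPM (n = 3) without and 6924 ± 2844 TPM (n = 3) with CK666. In CPM it was at 5812, 8668 and 7922 CPM with LIF2i, 5953, 4552 and 5509 CPM without it and 7076, 4647 and 4525 CPM with CK666, and the groups overlapped in each comparison. Gapdh was not called in any comparison with all libraries. On withdrawal the value was -0.50 (SE 0.23, edgeR adjusted p 0.11), and it passed without the replicate 1 libraries (-0.70, edgeR adjusted p 0.0011) or without the replicate 1 library with LIF2i alone (-0.76, 0.00092). Copies with at least 95% identity held up to 10.3% of the summed counts of Gapdh and its copies, at most 0.460% in replicate 1 and at least 8.15% in the other libraries.

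Phosphoglycerate kinase, encoded by Pgk1 (chromosome X, 106187100 to 106203699, plus strand of GRCm38), makes ATP directly and is a known HIF target. It was at 1149, 2773 and 2087 CPM with LIF2i, 1795, 2005 and 1883 CPM without it and 1147, 741 and 699 CPM with CK666. Replicate 1 with LIF2i was far below the other 2, and the 3 CK666 libraries lay below all 3 controls without LIF2i. Withdrawal gave -0.06 (SE 0.30, edgeR adjusted p 0.9) and CK666 -1.12 (SE 0.30, edgeR adjusted p 0.088), neither of them called. Without the replicate 1 libraries the CK666 change was -1.45 (edgeR adjusted p 0.00039), and it also passed when only the replicate 1 CK666 library (-1.62, 0.027) or only the replicate 1 library with LIF2i (-1.19, 0.0046) was left out. Against self-renewal Pgk1 fell by 1.18 on the log2 scale (SE 0.31, edgeR adjusted p 0.016), a call lost without replicate 2 or 3 of either group (0.069 to 0.096).

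Phosphoglycerate mutase, encoded by Pgam1, was at 1267, 1432 and 1162 CPM with LIF2i, 1306, 859 and 1015 CPM without it and 1046, 517 and 472 CPM with CK666. It fell only against self-renewal, at -1.02 (SE 0.22, edgeR adjusted p 0.0065), a call lost without the block (edgeR adjusted p 0.076) or without all libraries of replicate 2 (0.067) or replicate 3 (0.083). CK666 gave -0.70 (SE 0.22, edgeR adjusted p 0.12), which passed without the replicate 1 libraries (0.0038), without the replicate 1 CK666 library (0.037) and without the replicate 1 library with LIF2i (0.016). On withdrawal -0.32 (SE 0.22, edgeR adjusted p 0.28) passed without the replicate 1 libraries (-0.44, 0.026) or without that with LIF2i alone (-0.54, 0.028). Copies held up to 8.40% of its summed counts.

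Enolases form phosphoenolpyruvate, and 1 of the 3 genes was called. Eno3, the muscle form, was at 9.09, 7.63 and 7.84 CPM with LIF2i, 22.2, 21.4 and 24.9 CPM without it and 27.1, 19.4 and 19.8 CPM with CK666. It rose on withdrawal by 1.49 on the log2 scale (SE 0.18, edgeR adjusted p 0.00021), without overlap and in all 19 alternatives, and with CK666 stood at 1.42 (SE 0.18, edgeR adjusted p 0.00031) against self-renewal and -0.06 (SE 0.17, edgeR adjusted p 0.88) against the controls. Eno2, the neuronal form, ranged from 8.21 to 21.6 CPM with LIF2i, 7.33 to 36.2 CPM without and 9.43 to 42.9 CPM with CK666 and was called in no comparison with all libraries. Against self-renewal Eno2 passed when LIF2i replicate 1 was left out (0.79, edgeR adjusted p 0.021) or when control replicate 2 or 3 without LIF2i was (0.047 and 0.045). Eno1, the common form, was likewise called in none, at 1036 to 1865 CPM with LIF2i, 1153 to 2170.3 CPM without and 633 to 2141 CPM with CK666. Between 50.6% and 56.8% of the summed counts of Eno1 and its near-identical copies lay in the copies, so the level of Eno1 is uncertain. Replicate 1 had the highest Eno1 level of each group, and Eno1 passed for CK666 without the replicate 1 libraries (-0.98, edgeR adjusted p 0.0026) or without the replicate 1 CK666 library (-0.98, 0.029), and against self-renewal in the same 2 settings (0.0016 and 0.0088).

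Pyruvate kinase, encoded by Pkm, gave 4399 to 5081 CPM with LIF2i, 4409.6 to 6857 CPM without and 2597 to 5733 CPM with CK666 and was called in no comparison with all libraries, at 0.13 (SE 0.22, edgeR adjusted p 0.67) on withdrawal and -0.62 (SE 0.22, edgeR adjusted p 0.17) for CK666. The CK666 change passed without the replicate 1 libraries (-0.85, edgeR adjusted p 0.0021), without the replicate 1 CK666 library (-0.95, 0.044) and without the replicate 1 library with LIF2i (-0.66, 0.014). A same-strand gene that was not among those counted overlaps 15.3% of its exonic sequence. Its 2 products differ by a pair of mutually exclusive exons of 167 bases each, of which M1 is known from muscle and brain and M2 from embryonic and dividing cells. The exons are shown because the isoform share rests on reads that tell them apart. They lie on the plus strand of GRCm38 at chr9:59675029-59675195 (M1) and chr9:59675568-59675734 (M2), are coding, and match at 103 positions (61.7%). Capitals mark the 64 positions at which they differ, written 5′ to 3′.
M1 exon: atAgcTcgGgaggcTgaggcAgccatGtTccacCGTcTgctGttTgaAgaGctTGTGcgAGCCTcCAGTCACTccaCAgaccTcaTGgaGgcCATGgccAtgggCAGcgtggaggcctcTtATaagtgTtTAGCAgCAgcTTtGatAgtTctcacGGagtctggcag
M2 exon: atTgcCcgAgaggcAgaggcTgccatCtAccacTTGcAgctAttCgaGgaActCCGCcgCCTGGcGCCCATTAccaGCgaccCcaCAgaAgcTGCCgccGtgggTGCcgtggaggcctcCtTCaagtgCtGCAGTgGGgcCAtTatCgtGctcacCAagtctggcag
M2 was the major form in every library. M1 made up 0.472 ± 0.0703% (SD, n = 3) with LIF2i, 2.05 ± 0.184% (n = 3) without and 1.65 ± 0.238% (n = 3) with CK666. The withdrawn controls and the CK666 libraries lay above all self-renewing libraries (exact two-sided permutation p 0.1 for both, the smallest possible), and CK666 and its controls overlapped (exact p 0.2), though within all 3 same-numbered pairs the CK666 share was the lower (exact paired p 0.25, the smallest that 3 pairs allow, by sign flips added after the data were seen). These shares come from 1 annotated transcript of each form.

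Lactate dehydrogenase interconverts pyruvate and lactate, with Ldha encoding the form that favours lactate and Ldhb the heart form. Ldha (chromosome 7, 46841475 to 46855627, plus strand of GRCm38) was at 965, 1162 and 1009.5 CPM with LIF2i, 1551, 873 and 1115 CPM without it and 829.6, 189 and 223 CPM with CK666. Replicates 2 and 3 with CK666 were far below every other library, while replicate 1 with CK666 was below all 6 controls by less. The CK666 change was -1.72 (SE 0.40, edgeR adjusted p 0.065) and was not called, with pair ratios of -0.90, -2.21 and -2.32 on the log2 scale. It passed without the replicate 1 libraries (-2.29, edgeR adjusted p 0.00039), without the replicate 1 CK666 library (-2.43, 0.012) and without the replicate 1 library with LIF2i (-1.83, 0.030). Withdrawal gave 0.06 (SE 0.39, edgeR adjusted p 0.92), with overlapping groups. Against self-renewal Ldha fell by 1.66 on the log2 scale (SE 0.41, edgeR adjusted p 0.014), a call lost without replicate 2 or 3 of either group (0.056 to 0.091) or the block (0.10).

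Ldhb was at 142, 185 and 153 CPM with LIF2i, 9.84, 21.6 and 22.5 CPM without it and 9.19, 50.0 and 27.1 CPM with CK666 and fell by 3.28 on the log2 scale (SE 0.36, edgeR adjusted p 0.00021) on withdrawal, or 9.70-fold, without overlap and in all 19 alternatives. With CK666 the libraries scattered from 9.19 to 50.0 CPM and the change of 0.54 (SE 0.34, edgeR adjusted p 0.43) was not called. As a share of Ldha and Ldhb TPM, Ldhb made up 17.6 ± 0.314% (SD, n = 3) with LIF2i, 2.68 ± 1.19% (n = 3) without and 14.6 ± 12.7% (n = 3) with CK666. Self-renewing and withdrawn controls did not overlap, and the CK666 libraries reached from inside the withdrawn range to above the self-renewing one (exact p 0.3 against controls). Within all 3 same-numbered pairs the CK666 share was above that of the control, at 1.64, 27.0 and 15.0% against 1.31, 3.38 and 3.36% (exact paired p 0.25). Ldhb copies held up to 6.35% of its summed counts.

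Lactate leaves through monocarboxylate transporters. Slc16a3, which encodes MCT4 and is a known HIF target, ranged from 122 to 243 CPM with LIF2i, 256 to 466 CPM without and 81.0 to 177 CPM with CK666. CK666 libraries lay below all controls without LIF2i and the pair ratios were -1.40, -1.66 and -1.40, yet -1.47 (SE 0.35, edgeR adjusted p 0.067) was not called. The change passed without the replicate 1 libraries (-1.54, edgeR adjusted p 0.0019), without the replicate 1 library with LIF2i (-1.50, 0.00059) and without the replicate 2 library with LIF2i (-1.50, 0.039). On withdrawal Slc16a3 was at 0.77 (SE 0.35, edgeR adjusted p 0.11), which passed without the replicate 2 library with LIF2i (1.26, 0.017). Slc16a1, which encodes MCT1, ranged from 175 to 253 CPM with LIF2i, 213 to 326 CPM without and 190.3 to 308 CPM with CK666 and was called in no comparison.

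Pyruvate crosses the inner mitochondrial membrane through a carrier made of the products of Mpc1 and Mpc2. Both carrier genes fell on withdrawal, and Mpc1 was higher in CK666 cells than in the withdrawn controls. Mpc1 (chromosome 17, 8282904 to 8297661, plus strand of GRCm38) was at 25.0, 35.8 and 25.3 CPM with LIF2i, 3.86, 5.86 and 5.72 CPM without it and 8.86, 17.9 and 8.94 CPM with CK666, and the 3 groups did not overlap. It fell by 2.47 on the log2 scale (SE 0.22, edgeR adjusted p 4.3e-05) on withdrawal, in all 19 alternatives, was higher with CK666 by 1.16 (SE 0.22, edgeR adjusted p 0.036), and was below self-renewal, at -1.32 (SE 0.21, edgeR adjusted p 0.0012). The first 2 comparisons share the controls without LIF2i. The CK666 call was lost without any 1 of 8 libraries, the exception being replicate 1 with LIF2i (edgeR adjusted p 0.053 to 0.22), and without the block (0.35). An opposite-strand gene that was not among those counted overlaps 23.1% of the exonic sequence of Mpc1. Mpc2 was at 10.1, 16.7 and 11.4 CPM with LIF2i, 4.39, 6.28 and 7.61 CPM without it and 6.49, 7.81 and 6.87 CPM with CK666 and fell by 1.06 on the log2 scale (SE 0.24, edgeR adjusted p 0.0067) on withdrawal, a call lost only when all replicate 2 libraries were left out (0.11), while its CK666 change was 0.23 (SE 0.24, edgeR adjusted p 0.65). Against self-renewal it stood at -0.83 (SE 0.24, edgeR adjusted p 0.023), a call lost without the replicate 2 or 3 CK666 library (0.10 each), the replicate 2 library with LIF2i (0.11) or the block (0.077).

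Pyruvate dehydrogenase E1 alpha, encoded by Pdha1, was nearly level, at 312, 284 and 294 CPM with LIF2i, 296, 264 and 274 CPM without it and 327, 313 and 319 CPM with CK666, and its log2 changes lay between -0.09 and 0.20 with no call. Another gene overlaps 16.1% of its exonic sequence. Of the kinases that inactivate it, Pdk4 was at 12.9, 32.6 and 20.3 CPM with LIF2i, 4.25, 12.2 and 5.29 CPM without it and 6.63, 23.9 and 12.8 CPM with CK666. Pdk4 fell by 1.65 on the log2 scale (SE 0.20, edgeR adjusted p 0.00021) on withdrawal, without overlap and lost only without the block (edgeR adjusted p 0.067). With CK666 it was higher by 0.96 (SE 0.20, edgeR adjusted p 0.043), in 3 of 3 pairs though the groups overlapped, and both comparisons share the same controls. That call was lost without any 1 of 7 libraries, replicates 2 and 3 of CK666, replicates 2 and 3 with LIF2i and each control without LIF2i (0.055 to 0.26), and without the block (0.68). Against self-renewal it stood at -0.68 (SE 0.19, edgeR adjusted p 0.02), a call lost without any CK666 library (0.054 to 0.081), the replicate 3 library with LIF2i (0.098) or the block (0.50). Pdk1, a known HIF target, ranged from 149 to 186 CPM with LIF2i, 239 to 402 CPM without and 101 to 249 CPM with CK666. It rose on withdrawal by 0.77 on the log2 scale (SE 0.22, edgeR adjusted p 0.019), lost without replicate 1 or 2 with LIF2i (0.061 and 0.075), any control without LIF2i (0.057 to 0.063) or the block (0.092). With CK666 Pdk1 gave -0.83 (SE 0.22, edgeR adjusted p 0.079), which passed only without the replicate 1 or the replicate 3 library with LIF2i (0.028 and 0.047) and with DESeq2. Pdk3 ranged from 38.9 to 60.6 CPM with LIF2i, 30.8 to 45.4 CPM without and 24.9 to 41.7 CPM with CK666 and fell by 0.35 on the log2 scale (SE 0.12, edgeR adjusted p 0.046) on withdrawal, a call that only 1 of 19 alternatives kept and that was lost without any 1 of the 9 libraries (0.06 to 0.20). Against self-renewal it fell by 0.62 on the log2 scale (SE 0.12, edgeR adjusted p 0.0044), lost without the block (0.16) and without all replicate 2 or all replicate 3 libraries (0.052 and 0.074). Pdk2, at 7.78 to 14.6 CPM, was called in no comparison.

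**Figure D3:**
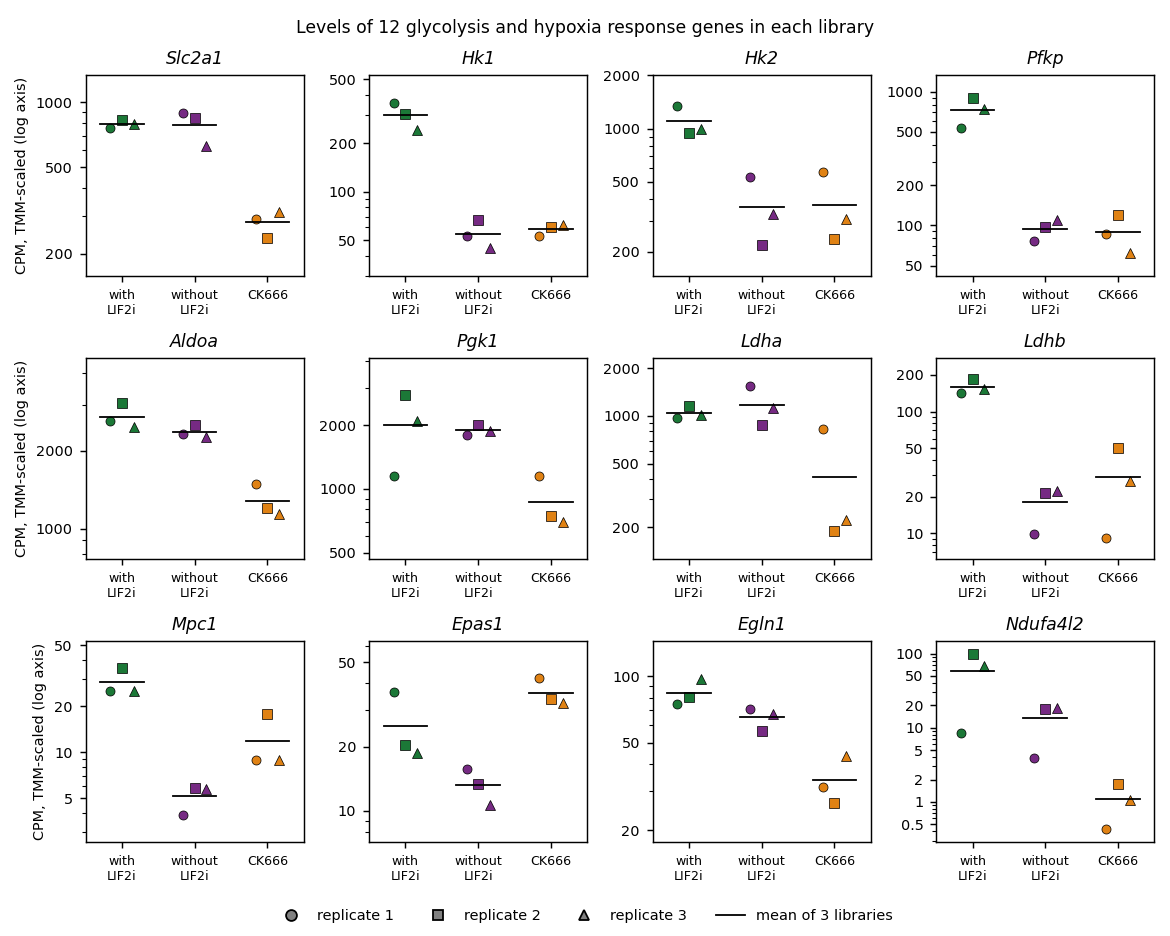
Levels of 12 of the genes in CPM after TMM scaling (log axes) in each library, by group, with symbols for the replicate number and lines at the mean of 3 libraries. For Slc2a1, Aldoa, Ldha and Egln1 the 3 CK666 libraries lie below the 6 others, for Hk1, Pfkp and Ldhb the libraries with LIF2i lie above the 6 others, and Mpc1 and Epas1 are lowest in the controls without LIF2i.

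Of the HIF alpha subunits, Hif1a, which encodes HIF-1 alpha, was at 298, 149 and 141 CPM with LIF2i, 238, 137 and 152 CPM without it and 254, 184 and 191 CPM with CK666 and was called in no comparison. Replicate 1 was the highest of each group. Epas1 (chromosome 17, 86753700 to 86833410, plus strand of GRCm38), which encodes HIF-2 alpha, was at 36.4, 20.4 and 18.8 CPM with LIF2i, 15.7, 13.4 and 10.7 CPM without it and 42.2, 33.7 and 32.3 CPM with CK666. Epas1 fell by 0.89 on the log2 scale (SE 0.17, edgeR adjusted p 0.0029) on withdrawal, in all 19 alternatives, and was higher with CK666 by 1.45 (SE 0.17, edgeR adjusted p 0.011), with no overlap in either comparison, and these share the controls without LIF2i. The CK666 call was lost without replicate 2 or 3 of CK666 (edgeR adjusted p 0.081 and 0.054) or of the controls (0.058 and 0.089), and without the block (0.27). Against self-renewal Epas1 was higher by 0.57 (SE 0.17, edgeR adjusted p 0.025), with overlapping groups, lost without replicates 2 or 3 of either group (0.085 to 0.12) or the block (0.24). Per length Hif1a was the more abundant of the pair in every library, at 40.4 to 113 TPM against 2.68 to 12.0 TPM.

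Prolyl hydroxylases mark HIF alpha for degradation, and their genes are themselves known HIF targets. Egln1 (chromosome 8, 124908587 to 124949324, minus strand of GRCm38), which encodes PHD2, was at 74.6, 80.6 and 96.9 CPM with LIF2i, 71.3, 56.7 and 67.6 CPM without it and 31.6, 26.4 and 43.3 CPM with CK666. All CK666 libraries lay below the 6 others, and Egln1 fell by 0.97 on the log2 scale (SE 0.15, edgeR adjusted p 0.026) against the controls and stood at -1.33 (SE 0.15, edgeR adjusted p 0.00017) against self-renewal, the latter in all 19 alternatives. The CK666 call was lost without replicate 2 or 3 of CK666 (edgeR adjusted p 0.19 and 0.057), any control without LIF2i (0.056, 0.15 and 0.10) or the block (0.30). On withdrawal Egln1 stood at -0.36 (SE 0.15, edgeR adjusted p 0.076) and passed without the replicate 1 library with LIF2i (-0.44, 0.034). Egln3, which encodes PHD3, was at 38.4, 66.0 and 67.2 CPM with LIF2i, 69.7, 36.2 and 31.0 CPM without it and 27.9, 16.2 and 13.9 CPM with CK666. It fell only against self-renewal, at -1.67 (SE 0.36, edgeR adjusted p 0.0075), lost without the CK666 replicate 3 library (edgeR adjusted p 0.05 after rounding) and without all replicate 2 or all replicate 3 libraries (0.11 and 0.075). The CK666 change was -1.22 (SE 0.35, edgeR adjusted p 0.11) with pair ratios of -1.32, -1.16 and -1.16, and it passed without the replicate 1 libraries (-1.18, 0.0017) or without the replicate 1 library with LIF2i alone (-1.23, 0.00059). The withdrawal change of -0.45 (SE 0.35, edgeR adjusted p 0.34) likewise passed without them, at -0.97 (0.00038) and -0.94 (0.00026).

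Among other HIF targets, Ndufa4l2 (chromosome 10, 127514967 to 127517154, plus strand of GRCm38), which encodes a HIF-induced protein that restrains respiratory complex I, had the largest changes of the 42 genes for CK666 and against self-renewal. It was at 8.55, 100.0 and 69.0 CPM with LIF2i, 3.86, 17.9 and 18.3 CPM without it and 0.427, 1.76 and 1.06 CPM with CK666. Replicate 1 was lowest in each group, and within each replicate number the level was highest with LIF2i and lowest with CK666. The CK666 libraries held 9, 31 and 19 counts. Withdrawal lowered it, at -1.90 (SE 0.26, edgeR adjusted p 0.00051), and so did CK666, at -3.66 (SE 0.34, edgeR adjusted p 0.0074), and against self-renewal it stood at -5.56 (SE 0.34, edgeR adjusted p 8.6e-06). The first 2 of these were lost without the block (edgeR adjusted p 0.093 and 0.33), and the CK666 call also without the CK666 replicate 2 library (0.058) or all replicate 3 libraries (0.091). The difference from self-renewal passed in all 19 alternatives.

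Bnip3, which encodes a mitophagy receptor and was per length the most abundant of these targets, was at 148, 287 and 282 CPM with LIF2i, 188, 100.3 and 121 CPM without it and 50.9, 71.6 and 55.6 CPM with CK666. All 3 pairs were lower with CK666, at -1.89, -0.49 and -1.13 on the log2 scale, and the value of -1.23 (SE 0.32, edgeR adjusted p 0.085) was not called. It passed without the replicate 1 libraries (-0.82, edgeR adjusted p 0.010) or the replicate 1 library with LIF2i (-1.18, 0.031). On withdrawal the 3 pairs disagreed in direction, the value was -0.77 (SE 0.32, edgeR adjusted p 0.084), and it passed without the replicate 1 library with LIF2i (-1.15, 0.017), without the replicate 1 control (-1.23, 0.003) or without all replicate 1 libraries (-1.33, 0.00013). Against self-renewal Bnip3 fell by 2.00 on the log2 scale (SE 0.32, edgeR adjusted p 0.0018), in all 19 alternatives. An opposite-strand gene that was not among those counted overlaps 22.3% of its exonic sequence.

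Vegfa, which encodes an angiogenic growth factor, was at 82.0, 119 and 84.2 CPM with LIF2i, 16.9, 17.9 and 24.0 CPM without it and 28.4, 31.4 and 27.8 CPM with CK666. Vegfa fell by 2.27 on the log2 scale (SE 0.18, edgeR adjusted p 2.5e-05) on withdrawal, or 4.82-fold, and stood at -1.69 (SE 0.18, edgeR adjusted p 0.00012) against self-renewal, both in all 19 alternatives. The CK666 libraries lay above the controls without LIF2i without overlap, at 0.58 (SE 0.18, edgeR adjusted p 0.12), which was not called. Ankrd37, an ankyrin repeat gene induced by HIF-1, was at 2.06, 11.4 and 8.93 CPM with LIF2i, 2.99, 4.10 and 6.15 CPM without it and 0.806, 2.21 and 2.18 CPM with CK666. It fell by 1.99 on the log2 scale (SE 0.39, edgeR adjusted p 0.0039) against self-renewal, lost only without all replicate 3 libraries (edgeR adjusted p 0.063), and its CK666 change of -1.46 (SE 0.39, edgeR adjusted p 0.086) passed without the replicate 1 libraries (-1.24, 0.040) or the replicate 1 library with LIF2i (-1.43, 0.017). On withdrawal -0.53 (SE 0.38, edgeR adjusted p 0.3) passed in the same 2 settings (-0.97, 0.027 and -0.89, 0.049). Other genes overlap 26.4% of its exonic sequence. Car9, which encodes carbonic anhydrase IX, was near the lower end of detection, at 0.427 to 1.76 CPM over all libraries, and was called in no comparison.

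**Figure D4:**
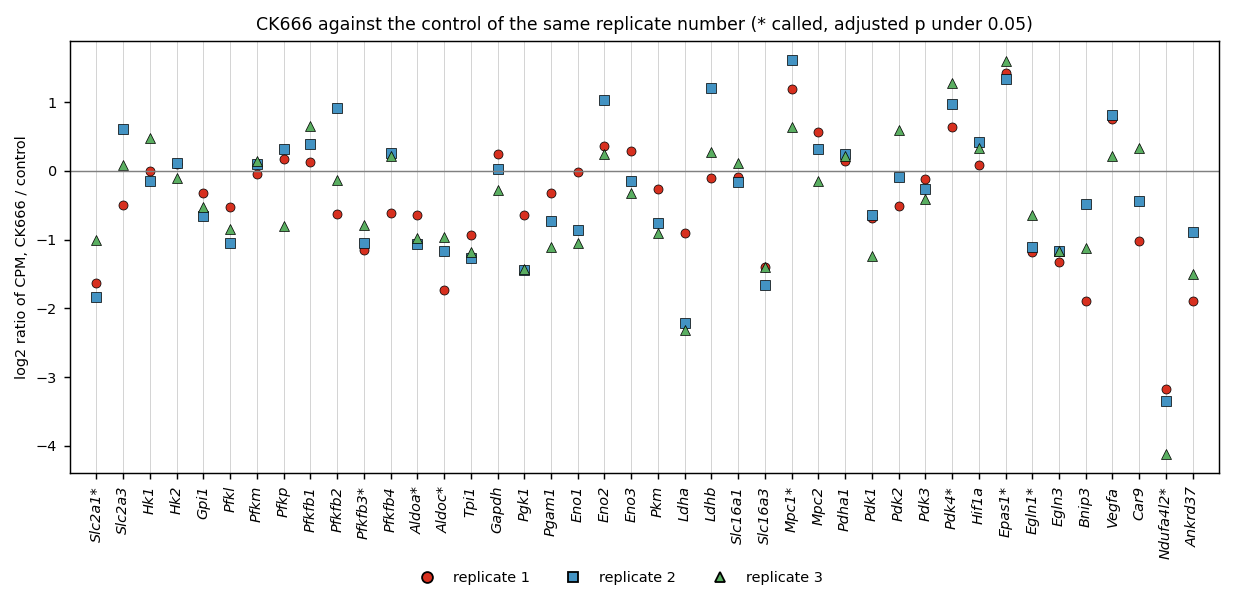
Log2 ratio of CPM between the CK666 library and the control without LIF2i of the same replicate number for each of the 42 genes, in order of role, with an asterisk at the 9 genes called. All 3 ratios were below 0 for 20 genes and above 0 for 8, and those of Ldha were -0.90, -2.21 and -2.32.

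HIF binds the core ACGTG or GCGTG, and the windows of 250 bases before the gene start were searched for it because members lowered by CK666 include known HIF targets. Both strands were searched, so that CACGT and CACGC are matches on the other strand and CACGTG counts on both strands. RefSeq windows on GRCm38.p6 were found for 39 of the 42 genes, taking for each the window nearest the start of its most abundant transcript, and not for Slc2a3, Epas1 or Ndufa4l2. At least 1 core was present in 33 of the 39 windows (84.6%) and at least 2 in 20 (51.3%). Among all 32851 windows these shares were 38.6% and 16.7%, and among 21263 windows of protein-coding genes 44.0% and 20.1%. Both backgrounds take every window, with no choice of 1 window per gene and no filter on expression, so the sets are unlike. The median GC content was 62.8% in the windows of the 39 genes, 52.4% in all windows and 55.6% in those of protein-coding genes, and its part in the difference was not tested. All 5 genes lowered by CK666 that have a window held a core, as did both raised ones, Mpc1 and Pdk4. The windows of these 5 lowered genes and of Ldha, whose window, like that of Bnip3, held 5 matches, the most among the 39, are shown 5′ to 3′ on the strand of the gene, ending at the base before the RefSeq start, with the core in capitals.
Slc2a1, chr4:119108495-119108744, plus strand: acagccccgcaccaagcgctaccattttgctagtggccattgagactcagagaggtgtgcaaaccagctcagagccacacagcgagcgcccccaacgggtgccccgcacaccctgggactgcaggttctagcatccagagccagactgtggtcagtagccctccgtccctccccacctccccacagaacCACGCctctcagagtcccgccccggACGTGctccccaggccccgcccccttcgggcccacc
Pfkfb3, chr2:11502091-11502340, minus strand: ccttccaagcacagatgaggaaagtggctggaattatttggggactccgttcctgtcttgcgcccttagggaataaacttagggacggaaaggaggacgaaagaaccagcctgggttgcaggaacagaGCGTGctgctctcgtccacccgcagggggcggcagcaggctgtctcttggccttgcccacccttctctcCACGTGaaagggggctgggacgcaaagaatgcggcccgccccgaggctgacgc
Aldoa, chr7:126799255-126799504, minus strand: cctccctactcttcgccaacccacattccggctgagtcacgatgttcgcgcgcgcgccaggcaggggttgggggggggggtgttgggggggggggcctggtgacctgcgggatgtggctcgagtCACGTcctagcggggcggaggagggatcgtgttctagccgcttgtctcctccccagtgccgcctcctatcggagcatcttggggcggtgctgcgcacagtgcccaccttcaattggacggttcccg
Aldoc, chr11:78323948-78324197, plus strand: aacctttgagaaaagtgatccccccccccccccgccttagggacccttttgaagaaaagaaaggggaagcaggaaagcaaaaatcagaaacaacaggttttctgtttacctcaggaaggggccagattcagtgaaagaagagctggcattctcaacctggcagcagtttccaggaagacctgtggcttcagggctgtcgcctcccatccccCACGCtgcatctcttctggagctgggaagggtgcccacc
Egln1, chr8:124949255-124949504, minus strand: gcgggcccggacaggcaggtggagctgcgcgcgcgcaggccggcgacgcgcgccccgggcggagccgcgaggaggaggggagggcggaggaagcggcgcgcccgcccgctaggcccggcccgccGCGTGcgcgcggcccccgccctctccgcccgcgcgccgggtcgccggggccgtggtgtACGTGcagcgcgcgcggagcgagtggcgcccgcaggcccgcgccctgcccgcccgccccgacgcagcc
Ldha, chr7:46845554-46845803, plus strand: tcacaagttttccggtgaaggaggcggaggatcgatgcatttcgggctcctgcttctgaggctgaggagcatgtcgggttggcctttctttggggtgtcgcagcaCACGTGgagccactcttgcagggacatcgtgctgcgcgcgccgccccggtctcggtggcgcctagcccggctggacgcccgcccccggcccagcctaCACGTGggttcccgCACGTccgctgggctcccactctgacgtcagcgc
Pfkfb3 and Ldha hold the palindrome CACGTG, Ldha in 2 places. Slc2a1 and Egln1 hold 2 cores each, and Aldoa and Aldoc 1 each. The presence of these letters does not show that a factor binds there.

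Other genes of the same pathways, from lists that do not overlap the 42, are given by their counts, to be read against all genes: 19.7% lowered and 21.1% raised on withdrawal, 0.894% and 1.15% with CK666, and 17.1% and 19.8% against self-renewal. Of 21 tested other glycolysis enzymes 8 fell and 2 rose on withdrawal, where 40.7% of all genes were called, with a median log2 fold change of -0.46 beside 0.01 over all genes. With CK666 1 of the 21 was called, Pgp, which encodes a phosphatase that clears glycolytic side products, at -0.77 (SE 0.12, edgeR adjusted p 0.026). Against self-renewal 9 fell and 1 rose, and Tigar, which encodes a fructose-bisphosphatase that opposes glycolysis, stood at -1.38 (SE 0.18, edgeR adjusted p 0.00045). Without all replicate 2 or all replicate 3 libraries 4 and 6 of the 21 were called on withdrawal, and 6 in either case against self-renewal. Over all genes these fits called 3746 of 14828 and 3099 of 14968 on withdrawal, and 3336 and 2413 against self-renewal.

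Of 22 tested genes of pyruvate and lactate handling 10 fell and 2 rose on withdrawal, beside 40.7% of all genes called. Among the lowered ones were Pck2, mitochondrial phosphoenolpyruvate carboxykinase, at -1.11 (SE 0.14, edgeR adjusted p 0.00029), and the alanine transaminase gene Gpt2, at -1.03 (SE 0.15, edgeR adjusted p 0.00058). With CK666 2 of the 22 were called, both raised: Pck2, at 1.38 (SE 0.14, edgeR adjusted p 0.0074), and Slc2a4, which encodes the insulin-responsive transporter GLUT4, at 1.67 (SE 0.31, edgeR adjusted p 0.035). Pck2 was at 173, 101 and 95.1 CPM with LIF2i, 97.2, 46.1 and 36.3 CPM without it and 200.7, 139 and 105 CPM with CK666, so that CK666 libraries lay above all 3 controls without LIF2i. Against self-renewal 3 rose and 5 fell. Without the block edgeR called 3 of the 22 on withdrawal and 3 against self-renewal, beside 3509 and 2966 of 14648 genes. Pck2 lost its withdrawal call there (edgeR adjusted p 0.092). Without all replicate 2 or all replicate 3 libraries (22 and 21 tested) 4 were called on withdrawal in either case, and 5 and 2 against self-renewal. Over all genes these fits called 3746 of 14828 and 3099 of 14968 on withdrawal, and 3336 and 2413 against self-renewal. Of 11 genes of the pentose phosphate pathway 4 were called on withdrawal, all raised, a share below the 40.7% of all genes called. Prps2 rose most, at 0.86 (SE 0.16, edgeR adjusted p 0.0022), a call lost without the block (0.079). Without the block 1 of the 11 was called on withdrawal, as without all replicate 2 libraries, and 2 were called without all replicate 3 libraries. For CK666 edgeR called 0 of the 11, 4 had an unadjusted p under 0.05 and DESeq2 called 3, and against self-renewal 3 rose and 2 fell, 5 calls in place of which 2 or 3 were made in these settings.

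Of 36 tested other genes of the HIF pathway and its targets 14 fell and 4 rose on withdrawal, beside 40.7% of all genes called, 19.7% lowered and 21.1% raised. The median was -0.39, and 0.01 over all genes. The largest changes were of Igfbp3, which binds insulin-like growth factors, at 4.74 (SE 0.18, edgeR adjusted p 1.2e-06), the stress response gene Ndrg1, at -1.67 (SE 0.27, edgeR adjusted p 0.0012), and the transferrin receptor gene Tfrc, at -1.51 (SE 0.21, edgeR adjusted p 0.00048). With CK666 4 fell and 2 rose. Ndrg1 was at 76.9, 133 and 123 CPM with LIF2i, 35.3, 24.5 and 40.3 CPM without it and 5.54, 13.0 and 11.8 CPM with CK666, with all CK666 libraries below all others, and changed with CK666 by -1.80 (SE 0.28, edgeR adjusted p 0.026). Anxa2 changed by -2.22 (SE 0.22, edgeR adjusted p 0.0074) and Vldlr, a lipoprotein receptor gene, by 1.30 (SE 0.21, edgeR adjusted p 0.026). Against self-renewal 18 fell and 8 rose, with a median of -0.78, and 16 were called there without the block and 15 of 37 tested without all replicate 3 libraries. Over all genes, dropping the block or all replicate 2 or 3 libraries moved the calls from 5967 to between 3099 and 3746 on withdrawal and from 5408 to between 2413 and 3336 against self-renewal. The CK666 calls of these lists were all lost without the replicate block, where an unadjusted edgeR p under 0.05 was reached by 8.54% of all genes, 14 of the 36 HIF pathway genes, 3 of the 21 glycolysis enzymes, 3 of the 22 pyruvate and lactate genes and 0 of the 11 pentose phosphate genes.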

How the data were processed

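Poly-A RNA of 9 E14 libraries was sequenced, and the deposited tables hold, per transcript, the estimated counts and TPM that the authors made, with kallisto per the submitters' processing notes, which also name FastQC, cutadapt 1.8.1 and sleuth. Per the same notes both GRCh38 and mm10 are builds of the series, and the transcript identifiers of the deposited files are those of mouse. TPM in the deposited files is scaled per transcript length to a fixed total, so it keeps no depth. Depth is given by the estimated counts.

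For this account the estimated counts of 119414 transcripts were summed per gene (116640 transcripts, 97.7%, had a gene, and 0.895 to 1.08% of counts had none) and rounded to whole numbers, and TPM was summed likewise. Genes passing filterByExpr (14648) were fitted over all 9 libraries in edgeR 4.0.16 (R 4.3.3) with TMM scaling, the replicate number as a block (4 residual degrees of freedom) and the robust quasi-likelihood test, with p-values adjusted over all genes. The series' design text describes paired biological replicates. Same-numbered libraries deviated together, with a correlation of 0.391 to 0.747 over 9 pairs of libraries and a median of -0.464 between other numbers. Deviations were taken from the mean of each group, so the negative median follows from the positive correlations and adds nothing to them. The fits were tested on counts simulated for withdrawal. DESeq2 made more false calls there than edgeR with the block (34 against 3) and recovered more of the changed genes. These counts were drawn without a replicate effect, so they cannot tell whether the block is needed. DESeq2 also ran there on genes with any count, and edgeR on those passing filterByExpr. Shares of isozymes were taken from TPM and tested with the exact permutation test in SciPy 1.17.1, between groups and, added after the data were seen, within pairs. Near-identical copies (at least 95% identity over 200 bases) were found with BLAST 2.17.0. The 19 alternative fits include DESeq2 1.42.0 and limma 3.58.1 on log2(TPM + 1).

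The 42 genes, the lists of other genes and the tests were chosen with earlier results of these data known. Values per library are given for genes called whose log2 change is 1 or more in size and for the most abundant gene of each role, and of each other list only genes among the 3 called ones with the largest changes in a comparison are named.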

Additional observations from a re-analysis of the deposited data

How the results depend on the processing

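Precision is limited by 3 libraries a group and 4 residual degrees of freedom, and the replicate 1 libraries lie apart from the others. With the replicate block 19, 9 and 29 of the 42 genes were called for withdrawal, CK666 and CK666 against self-renewal. Without the block these were 10, 0 and 20, and over all genes 3509, 0 and 2966 in place of 5967, 300 and 5408. For CK666 DESeq2 called 20 of the 42 and 1136 genes in all, limma on log2 TPM 4 and 42, effective length offsets 7 and 149, and the test without a filter 10 and 565. Fits that left out 1 library or 1 replicate number called 11 to 24 of the 42 and 3099 to 6588 genes for withdrawal, 0 to 21 and 0 to 1811 for CK666, and 18 to 36 and 2413 to 6129 for CK666 against self-renewal. Counting near-identical copies with the members changed none of their 126 calls, and shares from estimated counts moved by more than 1 SD for 11 of 24 values. Testing the shares with the replicate block took no difference past 0.05, which 3 pairs cannot reach. The cause of these shifts was not tested.

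The sign turned in some setting for 22 of the 126 log2 fold changes of the 42 genes, of which 0 were called by edgeR with all libraries, the largest being 0.22 in size. On withdrawal Slc2a1 was 0.0040 without the filter, 0.021 by limma and 0.0056 with length offsets, Pgk1 was 0.053 by limma, and Eno2 was -0.085 by limma and -0.16 with length offsets. For CK666 Pfkp was 0.016 with length offsets, Pfkfb4 was 0.0043 without the block, 0.28 by limma and 0.39 with length offsets, Gapdh was -0.0052 by DESeq2 and with its size factors, and Pdk2 was -0.15 by limma and -0.11 with length offsets. Against self-renewal Pfkfb4 was 0.25 by limma and 0.34 with length offsets, and Pdk1 was 0.027 without the block. On withdrawal the fits that left out libraries gave -0.25 to 0.31 for Eno2, -0.24 to 0.063 for Hif1a, -0.32 to 0.50 for Ldha, -0.013 to 0.20 for Pfkfb1, -0.16 to 0.46 for Pfkl, -0.41 to 0.29 for Pgk1, -0.10 to 0.38 for Pkm and -0.11 to 0.17 for Slc2a1. For CK666 they gave -0.25 to 0.073 for Eno3, -0.28 to 0.16 for Gapdh, -0.086 to 0.26 for Hk1, -0.10 to 0.11 for Hk2, -0.29 to 0.30 for Pdk2, -0.40 to 0.37 for Pfkfb2, -0.21 to 0.22 for Pfkfb4, -0.035 to 0.21 for Pfkm, -0.30 to 0.24 for Pfkp, -0.13 to 0.047 for Slc16a1 and -0.20 to 0.31 for Slc2a3. Against self-renewal they gave -0.14 to 0.41 for Car9, -0.30 to 0.35 for Pdk1 and -0.37 to 0.013 for Pfkfb4. The cause was not tested.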
